A study of Mus musculus with 35 samples.

Results

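Transcript levels of 10 genes of the Polycomb repressive complexes (Ezh1, Ezh2, Eed, Suz12, Jarid2, Mtf2, Phf19, Ring1, Rnf2 and Cbx7) were followed while mouse embryonic stem (ES) cells were driven toward primitive endoderm (PrE) by the transcription factor GATA6. The genes were chosen by symbol. All 10 were found among the 44853 genes of the induction table, and 5 of them (Ezh1, Eed, Jarid2, Mtf2 and Phf19) among the 6275 genes of the siRNA table, which holds genes that the study selected as responsive to GATA6. The ES cells were of the KH2 line, of mixed C57BL/6 x 129/Sv background, and every ES library, the untreated ones included, came from cells with a Gata6 expression cassette switched on by doxycycline (Dox). In the induction series, untreated cells (0 h) gave 3 libraries, and so did cells kept in 1 µg/mL Dox for 16, 24, 48, 72, 96 or 168 h. Untreated wild type XEN cells of the X10 line, of CD1 background and derived from extra-embryonic endoderm, gave 2 libraries, so that cell type, line, strain and the absence of LIF from their medium cannot be told apart in any comparison with them. In the siRNA series, cells of 1 clone were given a pool of non-targeting siRNAs (siCTL) or a pool against Oct4, the product of Pou5f1 (siOct4), and were collected after 48 h of Dox, with 6 libraries each. Inducible clones were derived from single antibiotic-resistant colonies, all cells were grown on mouse embryonic fibroblast feeders, and feeders were removed by adsorption before lysis. Levels are given in TPM, an abundance scaled to each library and divided by transcript length, which can therefore be compared between genes.

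Polycomb proteins keep developmental genes silent. Polycomb repressive complex 2 (PRC2) methylates lysine 27 of histone H3 through EZH1 or EZH2, held in a core with EED and SUZ12, and is brought to its sites by accessory subunits: JARID2 and AEBP2 in PRC2.2, and one of the Polycomb-like proteins PHF1, MTF2 or PHF19 in PRC2.1. Polycomb repressive complex 1 (PRC1) ubiquitinates histone H2A through RING1 or RNF2, and its canonical forms hold a CBX protein, such as CBX7, that reads the methyl mark. In ES cells Polycomb covers the promoters of many lineage regulators, among them HOX genes and endoderm factors.

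Promoter sequences are shown for 4 of the 10 genes, as examples of windows that hold the letters marked below. Any relation of these letters to the course of the transcripts was not tested. RefSeq (GRCm38.p6) gave 12 windows for the 10 genes, of which the 250 bases before the start were used. Capitals mark matches to TTTNNCGC, a loose E2F-type pattern in which N is any base, and to CCAAT, on either strand. The bases are printed in the direction of transcription. Phf19 lies at chr2:34913977-34914226 on the minus strand and Suz12 at chr11:79992856-79993105 on the plus strand. Ezh2 lies at chr6:47595031-47595280 and Cbx7 at chr15:79932647-79932896, both on the minus strand.
Phf19: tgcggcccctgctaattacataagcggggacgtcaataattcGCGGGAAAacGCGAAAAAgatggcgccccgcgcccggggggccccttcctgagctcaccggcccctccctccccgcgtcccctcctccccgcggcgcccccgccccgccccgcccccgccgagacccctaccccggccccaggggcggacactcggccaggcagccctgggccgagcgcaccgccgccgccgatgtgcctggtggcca
Suz12: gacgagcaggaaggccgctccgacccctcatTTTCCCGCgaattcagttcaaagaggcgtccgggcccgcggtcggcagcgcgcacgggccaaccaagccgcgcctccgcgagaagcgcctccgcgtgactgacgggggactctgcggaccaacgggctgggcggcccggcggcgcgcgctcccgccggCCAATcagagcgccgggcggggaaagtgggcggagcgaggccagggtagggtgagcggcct
Ezh2: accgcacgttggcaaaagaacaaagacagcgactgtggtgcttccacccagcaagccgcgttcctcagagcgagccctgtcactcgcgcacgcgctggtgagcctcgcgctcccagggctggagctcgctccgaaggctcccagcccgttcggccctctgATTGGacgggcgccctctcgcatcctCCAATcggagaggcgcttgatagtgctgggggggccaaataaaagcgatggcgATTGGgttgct
Cbx7: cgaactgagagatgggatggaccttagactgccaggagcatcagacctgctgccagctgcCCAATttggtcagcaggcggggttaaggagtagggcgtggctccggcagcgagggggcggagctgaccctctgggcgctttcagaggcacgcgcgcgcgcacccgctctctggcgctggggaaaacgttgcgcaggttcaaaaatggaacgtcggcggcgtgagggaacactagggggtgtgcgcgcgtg
The E2F-type letters occurred at 2 places before Phf19 and at 1 before Suz12, and in 2 of the 12 windows in all, against 4.28% of 32851 windows of the same length over all genes. CCAAT occurred at 3 places before Ezh2 and in 5 of the 12 windows, against 33.8% of all windows. GATAA, the letters of a GATA site, was searched on both strands too and was in 0 of the 12 windows, against 22.6% of all. CpG dinucleotides numbered from 2 in a second window of Mtf2 to 37 before Suz12, with at least 12 in the other 11 windows, against a median of 6 over all windows. A match to such letters is a description of the window and not evidence of a bound site.

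Gata6 was between 0.193 and 0.375 TPM in the 0 h libraries and between 122.2 and 369.6 TPM in all Dox libraries of the induction series, a gene-level value that does not separate the transgene from the endogenous gene. Pou5f1 was between 781.8 and 1194 TPM in siCTL and between 281.6 and 386.6 TPM in siOct4 libraries. The summed level of 10 ES cell markers fell between groups from 9644 to 9884 TPM at 0 h to 1801 to 2595 TPM at 168 h and 17.4 to 21.1 TPM in XEN cells, where 3 of the 10 were at 0. All 10 PrE markers were detected in XEN cells, with a sum of 14924 to 15049 TPM. The sum of 10 fibroblast markers, of which none was at 0 in any group, was 55.1 to 140.6 TPM at 0 h, 148.9 to 308.5 TPM at 168 h and 216.4 to 233.1 TPM in XEN cells. The sum of 12 genes of cell division went from 2788 to 2799 TPM at 0 h to 1971 to 2048 TPM at 168 h and 2181 to 2195 TPM in XEN cells. Several changes below run alongside these sums, whose part in the results was not tested. In whole-culture RNA, fewer cells of a type and less RNA per cell cannot be told apart.

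The 10 genes did not move together as cells left the ES state. Transcripts of the PRC2.1 and PRC2.2 accessory subunits Phf19, Jarid2 and Mtf2 and of the PRC2 core subunit Eed fell steeply, those of Ezh2 and Suz12 fell modestly, those of Ezh1 and Ring1 rose, and those of Rnf2 and Cbx7 did not pass the limma test against 0 h at the end of the induction (adjusted p of 0.109 and 0.74). At 168 h, 6 genes were lower and 2 higher than at 0 h at a limma adjusted p under 0.05, when 33.9% of the 15057 genes tested were lower and 41.1% higher, so that 8 of 10 is close to the 75% of all genes called in either direction. A difference above 1 in size on the log2(TPM + 1) scale was passed by 4 of the 10, against 39.1% of all genes, and Ezh1, whose mean TPM was 2.05-fold higher, lay just under it at 0.99. The median log2 difference over the 10 genes was -0.49 at 168 h, beside 0.09 over all genes tested. Rescaling the libraries by the median of their ratios moved the latter to -0.05. Single members moved further under it at 168 h, Cbx7 from 0.04 to -0.15 and Ring1 from 0.60 to 0.43. Small differences at 168 h thus depend on the scaling. All 10 genes passed the filter on low values.

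**Figure D1:**
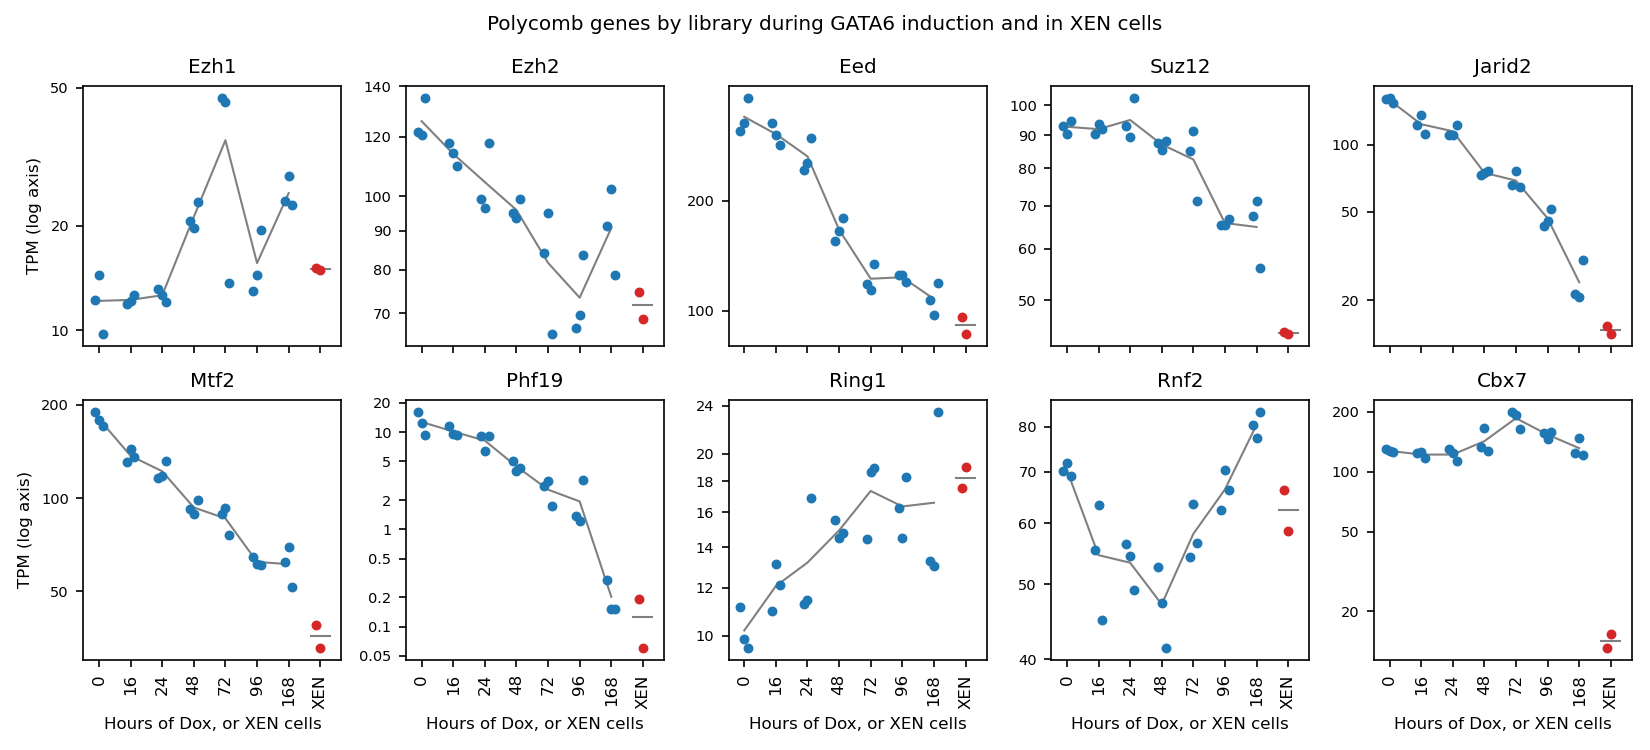
TPM of the 10 Polycomb genes (log axis, a separate range in each panel) in every library, by hours of Dox (equally spaced, not to scale) and in XEN cells. Each point is 1 library (3 per time point in blue, 2 XEN libraries in red) and the grey lines join or mark group means. Jarid2, Mtf2, Eed and Phf19 decline over the series, while Cbx7 is low in the XEN libraries only, at 13.1 and 15.3 TPM.

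EZH2, the methyltransferase of PRC2 in dividing cells, was encoded at 121.5, 120.7 and 135.1 TPM in the 3 libraries at 0 h. Ezh2 measured 67.0, 69.7 and 83.5 TPM after 96 h and 91.3, 102.3 and 78.7 TPM after 168 h. No library at 96 or 168 h reached the level of any 0 h library. The log2 difference on the log2(TPM + 1) scale was -0.39 ± 0.12 (SE; adjusted p by limma, 0.01) at 48 h, -0.77 ± 0.12 (SE; adjusted p by limma, 1.06e-05) at 96 h and -0.47 ± 0.12 (SE; adjusted p by limma, 0.00144) at 168 h. Between 96 and 168 h Ezh2 rose by 0.30 ± 0.12 (SE; adjusted p by limma, 0.0479). Its libraries at these times overlapped, with 83.5 TPM at 96 h and 78.7 TPM at 168 h. The median log2 difference over all genes in that step was 0.07, and -0.0015 after rescaling the libraries, under which the Ezh2 step was not read. Of the 12 cell division genes, 9 were lower and 3 higher at 168 h than at 0 h, beside 33.9% and 41.1% of all genes. Among them were Mcm2 at -1.17 and Pcna at -1.08, genes of DNA replication, and Mki67, a gene of proliferating cells, at 0.82 on the log2 scale. From 96 to 168 h, when Ezh2 rose, 1 of the 12 was higher and 2 were lower, against 42.7% of all genes called in either direction. Any relation of these genes to Ezh2 was not tested.

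EZH1, the other PRC2 methyltransferase and the main one of non-dividing cells, took an opposite course. Ezh1 measured 12.2, 14.4 and 9.75 TPM before Dox, 20.7, 19.6 and 23.4 TPM after 48 h and 23.6, 27.9 and 22.99 TPM after 168 h. Every library at 48 and 168 h was above every 0 h library. The log2 difference was 0.77 ± 0.29 (SE; adjusted p by limma, 0.0314) at 48 h and 0.99 ± 0.29 (SE; adjusted p by limma, 0.00481) at 168 h. The highest values were those of 72 h, at 46.8 and 45.4 TPM, but the third library of that time was at 13.7 TPM, within the 0 h range. That library held 173.2 TPM of the fibroblast markers, against 66.7 and 80.4 TPM in the other 2, and its Pou5f1 level of 873.3 TPM lay between theirs, at 866.9 and 935.4 TPM. The difference of 1.30 ± 0.29 (SE; adjusted p by limma, 6.30e-04) at 72 h became 1.86 without that library. It was 1.01 without the first and 1.03 without the second 72 h library. After 96 h Ezh1 measured 13.0, 14.4 and 19.4 TPM, a range that held the third 72 h library but not the other 2. From 72 to 96 h Ezh1 changed by -0.96 ± 0.29 (SE; adjusted p by limma, 0.0311), and at 96 h it did not pass against 0 h (0.33, limma adjusted p = 0.324). The 48 h call was lost in 4 of the 6 fits that left out 1 library, with adjusted p up to 0.117.

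EED, the subunit that binds the methyl mark and stimulates the enzyme, had the most abundant transcript of the 10 at 0 h. Eed measured 309.5, 324.9 and 381.8 TPM before Dox, 155.6, 164.7 and 179.5 TPM after 48 h and 106.8, 97.4 and 118.9 TPM after 168 h. From 24 h on, the Dox libraries lay below all 0 h libraries. The log2 difference was -0.36 ± 0.10 (SE; adjusted p by limma, 0.00898) at 24 h, -1.02 ± 0.10 (SE; adjusted p by limma, 4.35e-08) at 48 h and -1.64 ± 0.10 (SE; adjusted p by limma, 1.07e-11) at 168 h, a 3.15-fold lower mean. SUZ12 is the scaffold of the core. Suz12 measured 92.9, 90.4 and 94.7 TPM before Dox, 85.0, 91.4 and 71.0 TPM after 72 h and 65.2, 65.4 and 66.8 TPM after 96 h. Its libraries lay below those of 0 h at 48 h, overlapped with them at 72 h and lay below them again at 96 h. Suz12 passed the test at 96 h, with -0.49 ± 0.09 (SE; adjusted p by limma, 4.76e-05), and at 168 h, with -0.52 ± 0.09 (SE; adjusted p by limma, 2.06e-05), and the step from 72 to 96 h was itself past the threshold (-0.31 ± 0.09 SE, limma adjusted p = 0.0198). At 72 h the difference of -0.17 did not pass (limma adjusted p = 0.0818), but it did under rescaling (-0.27, limma adjusted p = 0.00801), without the second 72 h library (-0.25, limma adjusted p = 0.0204) and with a correction for gene length chosen after the data were seen (-0.20, limma adjusted p = 0.0442). The core subunits thus had unlike courses in the same libraries, with Eed already lower at 24 h, when Suz12 differed from 0 h by 0.03 (limma adjusted p = 0.832).

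JARID2, the PRC2.2 subunit that helps PRC2 engage ubiquitinated nucleosomes, was encoded at 160.0, 162.8 and 153.9 TPM before Dox. Jarid2 measured 73.5, 74.8 and 76.6 TPM after 48 h, 43.4, 45.4 and 51.5 TPM after 96 h and 21.4, 20.8 and 30.3 TPM after 168 h. Groups from 16 h on did not overlap with 0 h. The mean was 6.58-fold lower at 168 h, with a log2 difference of -2.69 ± 0.11 (SE; adjusted p by limma, 5.85e-14). The fall came in steps that each passed the test, of -0.61 from 24 to 48 h, -0.55 from 72 to 96 h and -0.94 from 96 to 168 h (limma adjusted p of 2.87e-04, 0.00393 and 2.10e-06). In the highest 168 h library, at 30.3 TPM, Pou5f1 was at 111.9 TPM and the fibroblast markers at 308.5 TPM, against 39.1 TPM for Pou5f1 in each of the other 2 and 148.9 and 149.6 TPM for the markers.

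MTF2, the Polycomb-like protein that brings PRC2 to unmethylated CpG islands, was encoded at 190.2, 179.4 and 171.6 TPM before Dox. Mtf2 measured 130.9, 144.0 and 135.9 TPM after 16 h, 92.1, 88.7 and 98.9 TPM after 48 h and 62.0, 69.7 and 51.7 TPM after 168 h. Every Dox library lay below the 0 h libraries. The log2 difference was -0.39 ± 0.10 (SE; adjusted p by limma, 0.00983) at 16 h and -1.55 ± 0.10 (SE; adjusted p by limma, 2.83e-11) at 168 h, a 2.95-fold lower mean, and the step from 96 to 168 h did not pass (-0.03, limma adjusted p = 0.819).

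PHF19, its relative, had a low transcript level from the start. Phf19 measured 16.2, 12.5 and 9.41 TPM before Dox, 5.05, 3.99 and 4.29 TPM after 48 h, 1.36, 1.23 and 3.23 TPM after 96 h and 0.305, 0.152 and 0.152 TPM after 168 h. The 168 h libraries were all under 1 TPM, and the mean was 62.5-fold lower than at 0 h. On the log2(TPM + 1) scale, which understates the change of a gene this low, the difference was -1.31 ± 0.22 (SE; adjusted p by limma, 6.39e-05) at 48 h and -3.48 ± 0.22 (SE; adjusted p by limma, 4.00e-11) at 168 h. The step from 96 to 168 h, of -1.23 ± 0.22 (SE; adjusted p by limma, 2.30e-04), was the 1 step between neighbouring times in which any of the 10 genes passed the test with a difference above 1 on that scale, as 7.67% of all genes did in that step.

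Of the PRC1 ligases, Rnf2 was the more abundant throughout. RNF2 is the main H2A ubiquitin ligase of ES cells. Rnf2 dipped and came back, from 70.0, 71.8 and 69.1 TPM before Dox to 52.7, 47.3 and 41.4 TPM after 48 h and 80.5, 77.3 and 83.7 TPM after 168 h. At 48 h the log2 difference from 0 h was -0.57 ± 0.11 (SE; adjusted p by limma, 1.31e-04) and at 168 h 0.19 ± 0.11 (SE; adjusted p by limma, 0.109), which did not pass. All 168 h libraries of Rnf2 lay above those of 0 h, and in the fit on the compared groups alone it passed (limma adjusted p = 0.0251). The rises from 48 to 72 h (0.30 ± 0.11 SE, limma adjusted p = 0.0384) and from 96 to 168 h (0.28 ± 0.11 SE, limma adjusted p = 0.0426) passed. Ring1, which encodes the second ligase, measured 11.2, 9.88 and 9.55 TPM before Dox, 14.4, 18.6 and 19.0 TPM after 72 h and 13.3, 13.0 and 23.5 TPM after 168 h. The Ring1 groups at 0 and 168 h did not overlap, but the third 168 h library, the one with the most fibroblast marker RNA, stood well above the other 2. The log2 difference was 0.71 ± 0.18 (SE; adjusted p by limma, 0.00187) at 72 h and 0.60 ± 0.18 (SE; adjusted p by limma, 0.00507) at 168 h. Without that library the latter was 0.34 (limma adjusted p = 0.0487), and with the correction for gene length it was 0.38 and no longer passed (limma adjusted p = 0.0579).

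CBX7, the main CBX protein of PRC1 in ES cells, had a transcript whose libraries at 168 h overlapped with those of 0 h and which was low in XEN cells. Cbx7 measured 130.1, 126.5 and 125.8 TPM before Dox, 200.2, 193.1 and 164.2 TPM after 72 h and 124.6, 147.6 and 122.0 TPM after 168 h. All 3 libraries at 72 h were above those of 0 h, with a log2 difference of 0.54 ± 0.10 (SE; adjusted p by limma, 9.99e-05), and Cbx7 rose from 48 to 72 h by 0.39 ± 0.10 (SE; adjusted p by limma, 0.00703). At 168 h the libraries overlapped with 0 h. The difference of 0.04 ± 0.10 (SE; adjusted p by limma, 0.74) took a negative sign under rescaling, at -0.15.

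The course of these changes can be set out by time. At 16 h, 3 of the 10 genes were lower and 0 higher by the limma test (0 higher at an unadjusted p under 0.05 as well), when 12.9% of all genes tested were called: Mtf2 (-0.39), Rnf2 (-0.37) and Jarid2 (-0.36, limma adjusted p = 0.0372). Leaving out single libraries brought that count to between 0 and 3, with 0 without the first 0 h library, 1 without the second 0 h library and 1 without the third 16 h library. Jarid2 was lost in most of these fits, with limma adjusted p up to 0.177, and with no filter on low values (limma adjusted p = 0.0680). At 24 h, 4 genes were lower, these 3 and Eed, against 28.5% of all genes, and Eed was lost without the first 24 h library or the third 0 h library (limma adjusted p = 0.0558 and 0.0568). Under rescaling Ezh2 and Phf19 passed at 24 h too (limma adjusted p = 0.0435 and 0.0397). At 48, 72 and 96 h, 8, 9 and 8 of the 10 genes passed, against 53.7%, 65.6% and 67.3% of all genes. Without single libraries these counts ranged from 6 to 8, from 8 to 10 and from 7 to 8. Cbx7 at 96 h was lost under rescaling (limma adjusted p = 0.0818), and Rnf2 at 72 h with no filter on low values (limma adjusted p = 0.0533). Both were also lost in most fits that left out 1 library, with limma adjusted p up to 0.0715 for Cbx7 and 0.106 for Rnf2. Ring1 at 48 h was lost in some such fits, with limma adjusted p up to 0.0649. From 16 to 24 h, 0 of the 10 passed, against 2.59% of all genes, and 1, Eed, had an unadjusted p under 0.05. From 24 to 48 h, Eed, Jarid2, Mtf2 and Phf19 fell further, 4 of 10 against 37.5% of all genes. From 48 to 72 h, Eed and Phf19 fell and Cbx7 and Rnf2 rose, against 29.6%. From 72 to 96 h, Ezh1, Jarid2, Mtf2 and Suz12 fell, against 16.5%. From 96 to 168 h, Jarid2 and Phf19 fell and Ezh2 and Rnf2 rose, against 42.7%. These steps were read in the main fit only, and the median over all genes from 96 to 168 h was 0.07 (-0.0015 after rescaling).

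**Figure D2:**
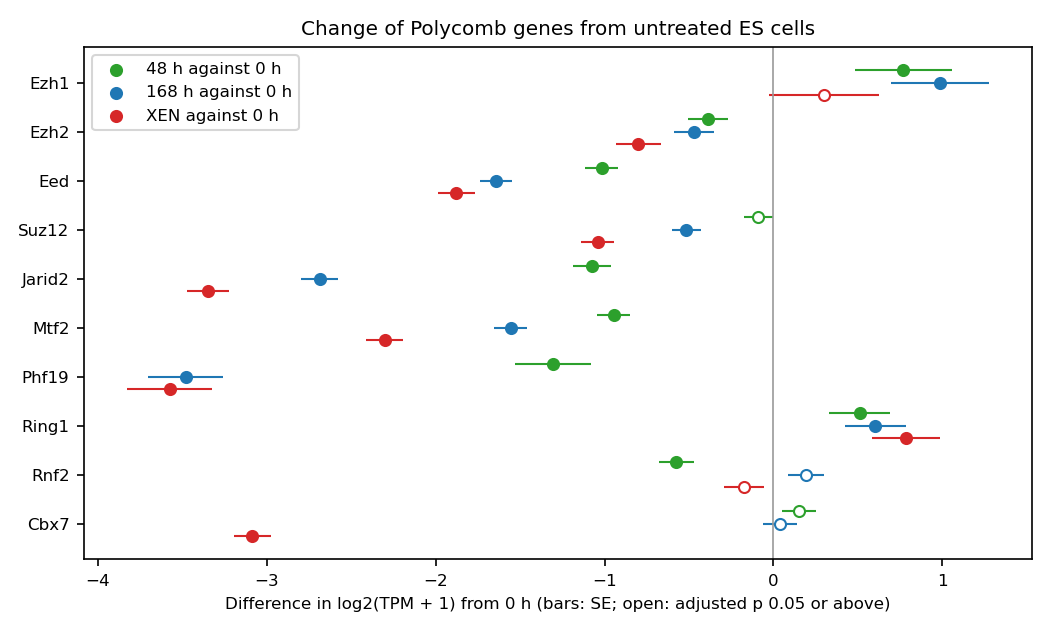
Difference from 0 h in log2(TPM + 1) for each Polycomb gene at 48 h of Dox (green), at 168 h of Dox (blue) and in XEN cells (red), with the standard error of the limma fit as a bar and open symbols for an adjusted p of 0.05 or above. At 168 h Jarid2 and Phf19 lie at -2.69 and -3.48 while Cbx7 lies at 0.04, and in XEN cells Cbx7 lies at -3.08.

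XEN cells, the study's reference for PrE, were compared with the end point of the induction. Cbx7 measured 13.1 and 15.3 TPM in the 2 XEN libraries, a mean 9.27-fold below that of 168 h, with a log2 difference of -3.12 ± 0.11 (SE; adjusted p by limma, 5.27e-14). This was the 1 Polycomb gene of the 10 that passed with a log2 difference above 1 in size, against 13.9% of all genes. In all, 6 genes were lower and 0 higher by limma in XEN cells (0 higher at an unadjusted p under 0.05 as well), against 32.2% and 17.8% of all genes. Mtf2 differed by -0.75 ± 0.11 (SE; adjusted p by limma, 1.62e-05), Jarid2 by -0.66 ± 0.12 (SE; adjusted p by limma, 2.32e-04) and Suz12 by -0.53 ± 0.10 (SE; adjusted p by limma, 1.55e-04). The median log2 difference of all genes in this comparison was -0.14, and -0.03 after rescaling. Under rescaling Rnf2 (-0.36 ± 0.12 SE, limma adjusted p = 0.0152) and Ezh2 (-0.33 ± 0.13 SE, limma adjusted p = 0.0464) moved to -0.21 and -0.18 and no longer passed. Rnf2 was also lost without the second XEN library (limma adjusted p = 0.157) and with the length correction (limma adjusted p = 0.108). Ezh2 was also lost with that correction, with no filter on low values, with the replicate block, without either XEN library, without the first or the second 168 h library, and in the fit on the compared groups alone. Eed, Ezh1, Phf19 and Ring1 did not pass, at -0.23, -0.69, -0.10 and 0.18. Without the second 168 h library Eed passed at -0.30, without the third Ring1 passed at 0.44, and in the fit on the compared groups alone Ezh1 passed at -0.69. Against 0 h, 7 genes were lower and 1 higher in XEN cells, when 36.2% and 35% of all genes were, and 6 passed with a log2 difference above 1 in size, against 37.6% of all genes. The largest of these differences were those of Phf19 at -3.58, Jarid2 at -3.35 and Cbx7 at -3.08.

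The order of the levels changed between the states. At 0 h it ran from Eed at 338.8 TPM through Mtf2, Jarid2, Cbx7, Ezh2, Suz12 and Rnf2 to Phf19, Ezh1 and Ring1 at 12.7, 12.1 and 10.2 TPM. The libraries of Cbx7 and Ezh2 overlapped, as did those of the last 3, and all other neighbours were apart. At 168 h Cbx7 stood first at 131.4 TPM, above Eed at 107.7 TPM, and Jarid2 had come down to the level of Ezh1, with overlapping libraries. In XEN cells the order was Eed at 91.2 TPM, Ezh2, Rnf2, Suz12, Mtf2, Ring1, Ezh1, Jarid2, Cbx7 and Phf19 at 0.126 TPM, where Ezh1, Jarid2 and Cbx7 overlapped at about the same level.

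Ratios within a library do not depend on how libraries are scaled. The log2 ratio of Ezh1 to Ezh2 was -3.39 ± 0.37 (SD, n = 3) before Dox and -1.87 ± 0.09 (SD, n = 3) at 168 h, with no overlap, so that the excess of Ezh2 went from between 8.37 and 13.9-fold to between 3.42 and 3.86-fold. The ratio of Phf19 to Mtf2 went from -3.86 ± 0.32 to -8.30 ± 0.59 (SD, n = 3 each), a difference of -4.44 that was -1.93 when computed on TPM + 1. That of Ring1 to Rnf2 went from -2.79 ± 0.12 to -2.33 ± 0.43 (SD, n = 3 each), and was highest at 48 h, at -1.65. Each of these 3 differences had an exact two-sided permutation p of 0.1, the smallest that 3 libraries against 3 can give (0.133 adjusted over 4 ratio tests).

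The share of a gene in the summed TPM of its family changed to an unlike degree from family to family. Ezh1 made up 8.85% ± 1.99 of Ezh1 and Ezh2 together before Dox and 21.5% ± 1.03 at 168 h (SD, n = 3 each). Of the 3 Polycomb-like genes, Phf1, the one not among the 10, went from 3.10% ± 0.15 to 26.9% ± 4.40 (SD, n = 3 each), and it was at 28.5% in XEN cells, while the summed level of the 3 went from 199.2 to 83.7 and 50.2 TPM. Jarid2 made up 73.2% ± 1.70 of Jarid2 and Aebp2 before Dox, 36.9% ± 3.54 at 168 h (SD, n = 3 each) and 18.2% ± 1.31 in XEN cells (SD, n = 2), where Aebp2, the other PRC2.2 subunit, was at 66.0 TPM. The mean of Aebp2 was itself lower at 168 h than before Dox, at 40.9 against 58.4 TPM. Cbx7 made up 78.5% ± 1.08 of the 5 canonical CBX genes before Dox and 76.6% ± 1.56 at 168 h (SD, n = 3 each), but 34.4% ± 2.24 in XEN cells (SD, n = 2). The 5 CBX transcripts together summed to 162.4 TPM before Dox, 171.5 TPM after 168 h and 41.1 TPM in XEN cells.

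**Figure D3:**
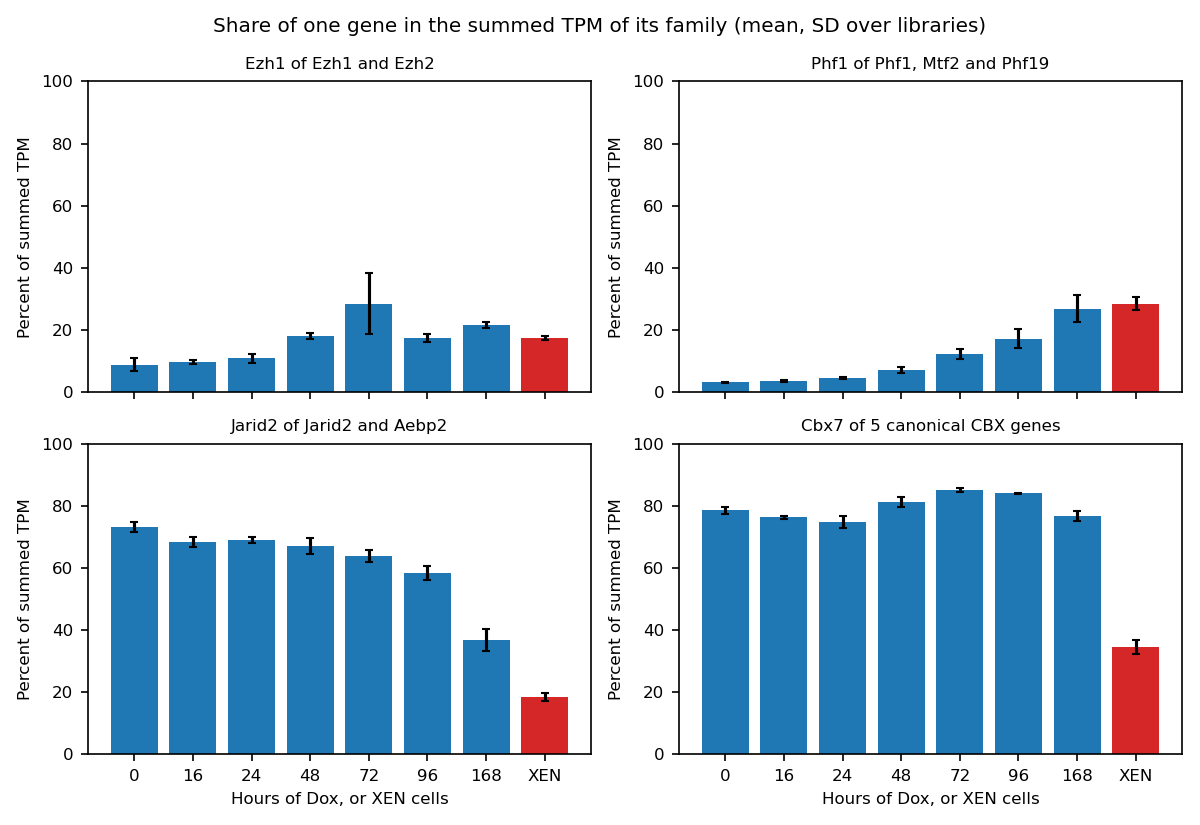
Share of Ezh1, Phf1, Jarid2 and Cbx7 in the summed TPM of their families, in percent, by hours of Dox and in XEN cells. Bars are means with the SD over libraries (3 per time point, 2 for XEN cells). The Phf1 share climbs from 3.10% to 26.9% by 168 h, and the Cbx7 share is 76.6% at 168 h and 34.4% in XEN cells.

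The other genes of the complexes were read from lists chosen for their function. Of 7 other PRC2 subunits tested, 5 were higher and 2 lower at 168 h, with a median log2 difference of 1.14 beside 0.09 for all genes. The counts of this and the other lists at 168 h stand beside 41.1% higher and 33.9% lower over all genes tested. Phf1 went from 6.15 ± 0.151 to 22.3 ± 2.28 TPM, Rbbp7, a histone-binding subunit, from 256.9 ± 1.67 to 765.4 ± 45.2 TPM and Lcorl, of a PRC2.1 form, from 4.10 ± 1.37 to 13.4 ± 3.0 TPM (SD, n = 3 each). Epop, a PRC2.1 subunit named after its values were seen, was the 1 gene of this list to pass at 16 h. It rose from 191.6 ± 24.9 to 425.7 ± 16.5 TPM (1.15 ± 0.11 SE, limma adjusted p = 3.66e-07). In the same 16 h libraries Mtf2 and Jarid2 lay below all 0 h libraries, though the Jarid2 call was lost in most fits without 1 library. Of the 6 PCGF genes, which define the forms of PRC1, 3 were higher and 1 lower at 168 h. Pcgf5 went from 11.9 ± 0.403 to 94.5 ± 17.1 TPM, Bmi1 from 3.65 ± 2.63 to 25.5 ± 4.54 TPM and Pcgf3 from 11.3 ± 1.09 to 27.4 ± 1.49 TPM.

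Canonical PRC1 genes other than Cbx7 changed in both directions, 4 of 9 higher and 4 lower at 168 h. Phc1, the Polyhomeotic gene typical of ES cells, went from 158.6 ± 3.39 TPM before Dox to 68.2 ± 8.33 TPM after 16 h and 11.6 ± 0.679 TPM after 168 h (-3.66 ± 0.14 SE, limma adjusted p = 2.65e-14). Cbx8 rose from 0.555 ± 0.0117 TPM to 10.5 ± 2.15 TPM, and was far below Cbx7 at both times. Of 13 variant PRC1 genes, 6 were higher and 5 lower, among them Yaf2 from 5.43 ± 0.219 to 50.0 ± 5.71 TPM, Fbrs from 15.9 ± 1.43 to 54.8 ± 11.3 TPM and Bcorl1 from 1.11 ± 0.50 to 5.11 ± 0.560 TPM. Of 7 genes whose products act against Polycomb marks, 5 were higher and 2 lower. Kdm6b, a demethylase of histone H3 lysine 27, rose from 9.83 ± 0.789 TPM to 24.9 ± 1.63 TPM by 16 h and 39.5 ± 3.97 TPM after 168 h, while Mbd6 rose by 1.00 and Asxl1, a partner of the H2A deubiquitinase BAP1, fell by 0.78 on the log2 scale.

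Genes known as Polycomb targets in ES cells were read the same way. Of 39 HOX genes 13 passed the filter on low values, and of these 0 were called at 16 h by limma, with 3 at an unadjusted p under 0.05, and 13 were higher at 168 h, which gives no count for the other 26. Genes this low can pass the filter through the groups in which they were high, so that count describes the filter as well as the genes. Hoxb4 went from 0.135 ± 0.117 to 7.32 ± 0.134 TPM and Hoxc13 from 1.00 ± 0.109 to 8.20 ± 2.16 TPM, all low levels. All 7 endoderm regulators of the lists were higher at 168 h, Gata4 at 413.3 ± 31.4 TPM, Sox17 at 283.1 ± 23.03 TPM and Pdgfra at 233.1 ± 17.5 TPM. Gata4, Sox7, Sox17, Foxa2 and Pdgfra among them are also PrE markers of this report. The count thus follows from the choice of the list and is not a result about Polycomb. Of 18 other lineage regulators 7 passed the filter, in part through the Dox groups, so that no count is given for them. Cdkn2a, a cell cycle inhibitor locus, went from 18.0 ± 2.06 TPM before Dox to 35.2 ± 10.03 TPM after 168 h and 92.1 ± 5.80 TPM in XEN cells, and its neighbour Cdkn2b from 5.23 ± 1.57 to 11.5 ± 1.75 and 16.2 ± 0.279 TPM, whereas Olig2, a neural factor, went from 12.4 ± 0.607 to 0.152 ± 0.0730 TPM.

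**Figure D4:**
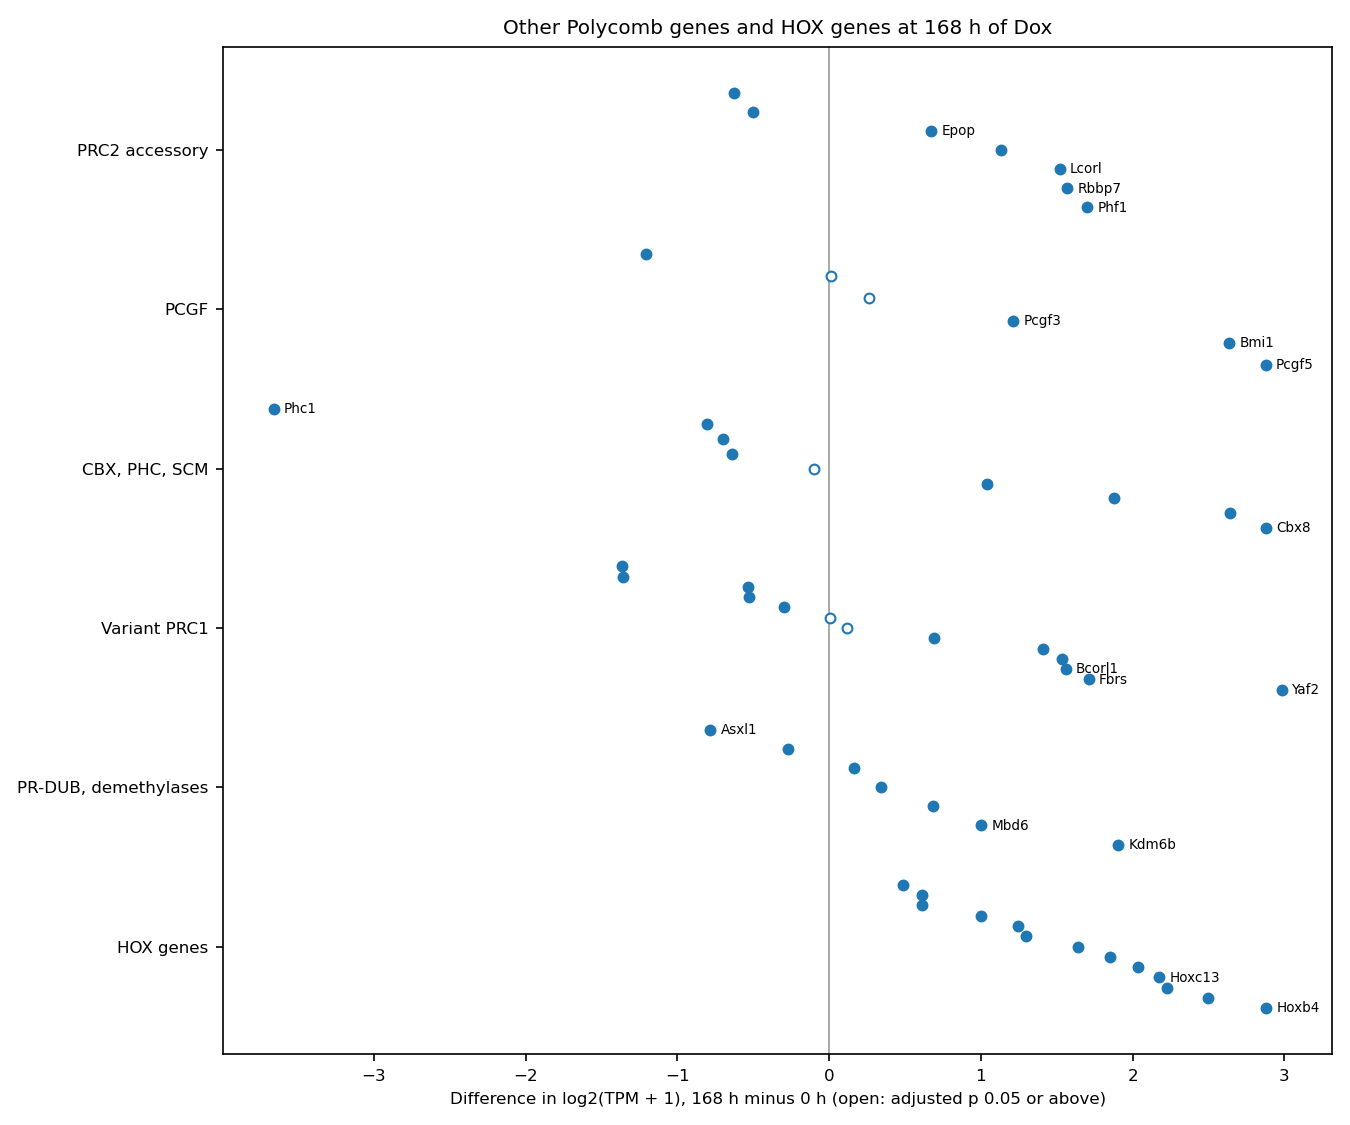
Difference between 168 h and 0 h in log2(TPM + 1) for the tested genes of 6 lists, 1 point per gene, with open symbols for an adjusted p of 0.05 or above and the vertical position within a list of no meaning. Named points are those described in the text. Phc1 lies at -3.66 and Yaf2 at 2.98, and all 13 HOX genes tested lie to the right of 0. HOX genes could pass the filter on low values through the groups in which they were high, so their side is in part set by the filter.

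The genes whose course over the 8 group means was most like that of a member were sought among 7063 genes with a wide enough range. These Pearson correlations describe 8 means that share their libraries. For Phf19 the nearest was Xrcc5, which encodes the Ku80 subunit of DNA end joining, at 0.999, followed by Rpl10l and Gdf3. For Jarid2 it was Mrpl45 at 0.998, then AU018091 and Mtln, for Eed it was Zmym1 at 0.998, then Zfp600 and Adgrl1, and for Mtf2 it was Cwf19l2 at 0.997, then Gm4013 and Palb2. Suz12 was nearest to Gnpda1 at 0.994, then Angel1 and Cxxc5. Cbx7 was nearest to Gm10479 at 0.997, then Nsa2 and Gm21742, of which Nsa2 measured 129.7 TPM before Dox, 130.1 TPM after 168 h and 70.2 TPM in XEN cells. Ezh1 was nearest to Gm17035 at 0.978, then Ndrg1 and Uevld. Ndrg1 was at 92.0 and 91.0 TPM in the first 2 libraries of 72 h and at 6.78 TPM in the third, the same library in which Ezh1 was low.

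To ask what Oct4 contributes at 48 h of Dox, siOct4 was compared with siCTL for the 5 members in that table. Of these, 0 passed in limma without pairing, against 2.67% of 6264 genes, and 1, Ezh1, had an unadjusted p under 0.05. The third siCTL library held the lowest siCTL level of all 5 genes, and its partner, the third siOct4 library, the lowest siOct4 level of 4 of them. Leaving out both, chosen after the data were seen, gave differences of -0.74 for Jarid2, -0.76 for Ezh1, -0.49 for Mtf2, -0.24 for Eed and 0.21 for Phf19, of which 0 passed in limma without pairing and 1, Jarid2, with the replicate number as a block (adjusted p = 0.0424). The median log2 difference of the 5 was -0.42, beside -0.12 for all genes (0.01 after rescaling). The summed level of the 5 trophoblast markers in that table was 9.32 to 40.8 TPM in siCTL and 23.3 to 137.1 TPM in siOct4 libraries. It was higher with siOct4 in 6 of 6 pairs, and 1 of the 5 markers, Ascl2, passed in limma without pairing. The libraries numbered 5 and 6 held the highest sums of both groups. With siOct4 these were 137.1 and 132.2 TPM, against at most 51.9 TPM in those numbered 1 to 4. Their part in the results was not tested. Jarid2 was at a lowest, median and highest level of 21.6, 67.1 and 122.5 TPM in siCTL and 14.9, 33.5 and 91.6 TPM in siOct4 libraries. The groups overlapped widely, but each siOct4 library was below the siCTL library of the same number, by -1.40 to -0.39 on the log2 scale. The libraries numbered 5 and 6 were the highest of both groups, at 122.5 and 107.9 TPM in siCTL and 91.6 and 82.1 TPM in siOct4. Those numbered 1 to 4 reached at most 85.2 TPM in siCTL and 35.4 TPM in siOct4. The mean difference of -0.70 ± 0.47 (SE; adjusted p by limma, 0.58) passed with the replicate number as a block (adjusted p = 0.0177), in a fit that called 9.18% of all genes. The exact two-sided permutation p for Jarid2 was 0.232, and the exact paired sign-flip p was 0.0312, the smallest that 6 pairs allow.

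Ezh1 was at a lowest, median and highest level of 8.36, 23.9 and 26.1 TPM in siCTL and 7.45, 12.9 and 20.3 TPM in siOct4 libraries, and it was lower in 5 of 6 pairs. Its log2 difference was -0.66 ± 0.29 (SE; adjusted p by limma, 0.323), with an adjusted p of 0.0715 with the block, an exact permutation p of 0.0693 and an exact paired p of 0.0938. Leaving out the third siCTL library alone, which breaks a pair, gave -0.89 (limma adjusted p = 0.0422), and leaving out the whole pair gave a limma adjusted p of 0.0700 without and 0.0868 with the block. Mtf2 was at 67.0, 144.2 and 172.6 TPM in siCTL and 64.2, 102.0 and 153.6 TPM in siOct4 libraries as lowest, median and highest, lower in 5 of 6 pairs (-0.42 ± 0.25 SE, limma adjusted p = 0.516, with 0.111 under the block). Eed, between 150.6 and 268.9 TPM in siCTL and between 178.6 and 224.4 TPM in siOct4 libraries, differed by -0.16 ± 0.14 (SE; adjusted p by limma, 0.711), and Phf19, between 0.339 and 4.94 TPM and between 0.459 and 6.88 TPM, by 0.24 ± 0.47 (SE; adjusted p by limma, 0.878) with 5 of 6 pairs higher. With 0.434 for Eed and 0.370 for Phf19, the block changed neither call. Phf19 too was highest in the libraries numbered 5 and 6, at 4.94 and 4.38 TPM in siCTL and 6.88 and 5.52 TPM in siOct4. Those numbered 1 to 4 reached at most 1.41 and 2.05 TPM. The log2 ratio of Phf19 to Mtf2 differed by 0.82 (exact two-sided permutation p = 0.258) and was higher in 6 of 6 pairs, by 0.32 to 1.19 (exact two-sided paired sign-flip p = 0.0312, the smallest that 6 pairs allow). Among the other Polycomb genes in the table, Pcgf5 was the 1 gene of the lists for PRC1 and PRC2 that passed in limma without pairing. It was higher by 0.79 ± 0.17 (SE; adjusted p by limma, 0.0188). These list genes were not read with the replicate block, so others may pass there.

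**Figure D5:**
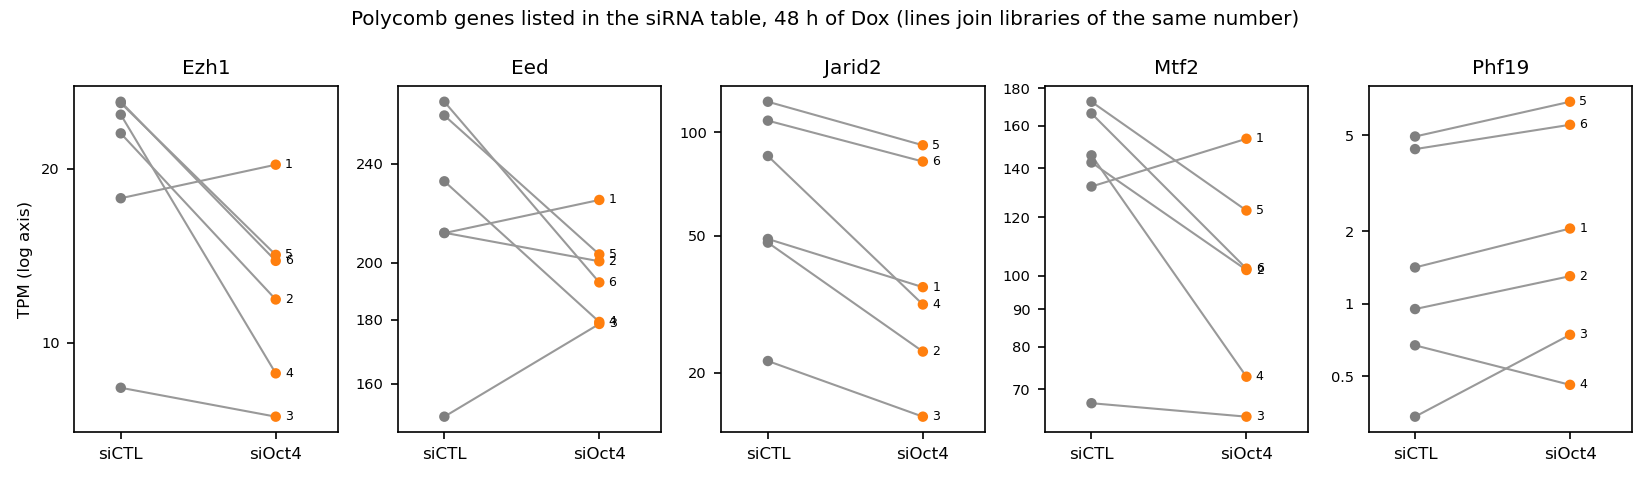
TPM (log axis, a separate range in each panel) of the 5 Polycomb genes listed in the siRNA table in the 6 siCTL (grey) and 6 siOct4 (orange) libraries after 48 h of Dox. Lines join libraries with the same number, which is printed beside the siOct4 point. Jarid2 is lower with siOct4 in 6 of 6 pairs, and siCTL 3 is the lowest siCTL library in each panel.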

How the data were processed

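RNA-seq was made from 35 mouse cell libraries. Stranded polyA RNA was read in pairs. The authors used STAR for alignment to mm10 and RSEM for gene quantification, took out outliers of a principal component analysis, and deposited TPM. Versions and annotation are not given in the sources used here. TPM keeps no read number, so the depth is unknown and only the spread between libraries measures error. The deposited tables summed to 999764 to 999881 TPM per library (induction) and 274527 to 355895 TPM (siRNA, selected genes). Mean columns and the authors' classes of response in the siRNA table were not used.

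For 60 symbols on more than 1 row the highest row was kept. Values were used as log2(TPM + 1), and genes whose mean reached 1 TPM in a group were tested with limma 3.58.1 in R 4.3.3 (eBayes with trend and robust options, 1 coefficient per group, Benjamini-Hochberg over all genes, adjusted p under 0.05). The scripts were tested on simulated data. Other values came from Python 3.11.15 with pandas 2.3.3 and scipy 1.17.1. The study describes its replicates as independent, and p-values measure the spread between these samples. Same-numbered siRNA libraries deviated together from their group means, with correlations of 0.236 to 0.707 over the 6 pairs (mean 0.33). Pair 3 was at 0.707 and the others lay between 0.236 and 0.274. Libraries of different numbers ranged from -0.56 to 0.46 (mean -0.06), so that some of them correlated more than most same-numbered ones. Numbers were taken to pair the siRNA libraries, and the results with the replicate block and the sign-flip p-values rest on that choice. In the induction series the correlations had a mean of 0.03 and ranged from -0.19 to 0.22, and numbers were not taken to pair libraries.

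The members, lists and tests were chosen with earlier results of these data known. The other genes named were, from each list, up to 3 with the largest difference at 168 h among those that passed with at least 5 TPM (for HOX genes and lineage regulators, up to 3 reaching 5 TPM), and for each member with a range above 1 on the log2 scale the 3 genes of highest correlation. Of the genes this rule picks, 2 are not reported here.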

Additional observations from a re-analysis of the deposited data

Results flagged for a closer look

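In the siRNA series, 12 sets of 6 values of the members were searched for 1 value lying apart from the rest. This was so in 2 sets, and chance alone gives about 0.6. Both were in the third siCTL library. On the log2(TPM + 1) scale, Ezh1 was 3.23 there, against 4.23 to 4.76 in the other siCTL libraries, and Mtf2 was 6.09, against 7.06 to 7.44. In the same library, levels relative to the siCTL mean changed by -0.184 on the log2 scale per doubling of gene length, the most negative value of the 12 siRNA libraries, and its part in these values was not tested.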

How the results depend on the processing

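The alternatives were rescaling by the median of ratios, a pseudocount of 0.1, no filter on low values, a minimum of 5 TPM, the compared groups alone, the replicate block and leaving out single libraries. A correction for gene length, alone and with the block, and leaving out both siRNA libraries numbered 3 were chosen after seeing the data. Differences of the members between neighbouring times were read in the main setting only, so their dependence on these choices is not known. Over the values of single genes and ratios, 1082 kept their direction and side of the threshold, 44 lost and 17 gained a call, 13 changed sign and 1 moved. TPM hides the depth, so precision at low levels, as for Phf19 at 168 h, is not known beyond the spread of 3 libraries.

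The number of members passing at 16 h, 3, ranged from 0 to 3 without single libraries. With siOct4, 0 passed without pairing. The number was 1 with the replicate block, 1 with the block and the length correction, 1 with the block and both libraries of pair 3 left out, and 0 to 1 without single libraries. In the induction series the replicate block changed 1 call among the members, that of Ezh2 between XEN cells and 168 h (-0.33, adjusted p = 0.0639), and in the siRNA series that of Jarid2. The pairing check is given in the processing.

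Sign changes were all of differences that had not passed. Without single libraries, Ezh1 ranged from -0.11 to 0.15 at 16 h and from -0.072 to 0.19 at 24 h, Suz12 from -0.030 to 0.0033 at 16 h and from -0.026 to 0.075 at 24 h, Cbx7 from -0.047 to 0.089 at 168 h and Phf19 with siOct4 from -0.026 to 0.48. For Suz12 at 16 h the other positive value was 5.8e-04. Rescaling gave -0.0055 for Ezh1 at 16 h, -0.020 for Suz12 at 24 h and -0.15 for Cbx7 at 168 h. The length correction gave -0.015 for Ezh1 at 16 h, -0.0015 for Cbx7 at 168 h and 0.11 for Phf19 between XEN cells and 168 h. The log2 ratio of Phf19 to Mtf2 differed by -4.44 between 168 h and 0 h, and by -1.93 when computed on TPM + 1. The cause of these changes was not tested.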
